A study of Mus musculus with 4 samples.

Results

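The genes of the cyclin D, CDK4/6, RB and E2F axis were compared between late-onset high-grade and early-onset low-grade gliomas of the mouse. The 10 genes are those of the D-type cyclins (Ccnd1, Ccnd2, Ccnd3), their kinases (Cdk4, Cdk6), the pocket proteins (Rb1, Rbl1, Rbl2) and the activator factors E2f1 and E2f3. They were chosen by function, with earlier results of these data known. All 10 were on the array, and they stand among 19937 genes with a probe set of their own. E2f3 had 2 probe sets, of which the one with the higher mean over the 4 arrays was used, and each of the other genes had 1.

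All tumours arose in C57/Bl6 mice whose embryos had received, at embryonic day 14, a retrovirus that expresses PDGF-B and EGFP from one transcript. PDGF-B is a growth factor that keeps glial progenitors dividing, and both groups carry it, so no sample is free of the driver. The late-onset group held 2 samples of EGFP-sorted cells, each from 1 high-grade tumour, called tumour 1 and tumour 2 here. The early-onset group held 2 samples of EGFP-sorted cells, each pooled from 2 low-grade tumours, called pool 1 and pool 2. Ages are not given in the labels used here, and grade and time of onset cannot be told apart, since they change together.

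D-type cyclins are made in response to growth factors and bind CDK4 or CDK6. The active kinases phosphorylate RB and its relatives p107 (Rbl1) and p130 (Rbl2), which in their unphosphorylated form hold E2F factors and repress the genes of S phase. INK4 proteins block CDK4 and CDK6, and once RB is phosphorylated the released E2F factors switch on cyclin E, the replication machinery and several genes of the axis itself. In gliomas this axis is among the pathways most often altered.

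The axis did not move as a block. Ccnd3, Rbl1 and E2f1 rose in late-onset cells, each by about the same amount on the log2 scale (0.71, 0.71 and 0.73), and Cdk6 fell by 1.01. The other 6 genes did not pass the threshold, a Benjamini-Hochberg adjusted p of 0.05 over all 19937 genes in a limma fit. Of the 10, 3 were called higher and 1 lower, whereas over all genes 6.59% were called higher and 8.12% lower, 14.7% in all. Late-onset and early-onset values did not overlap for any of the 10 genes, with 6 higher and 4 lower, but that was also true of 58.9% of all genes (28.5% higher and 30.4% lower). The median log2 fold change was 0.30 for the 10 genes and -0.01 for all genes.

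**Figure D1:**
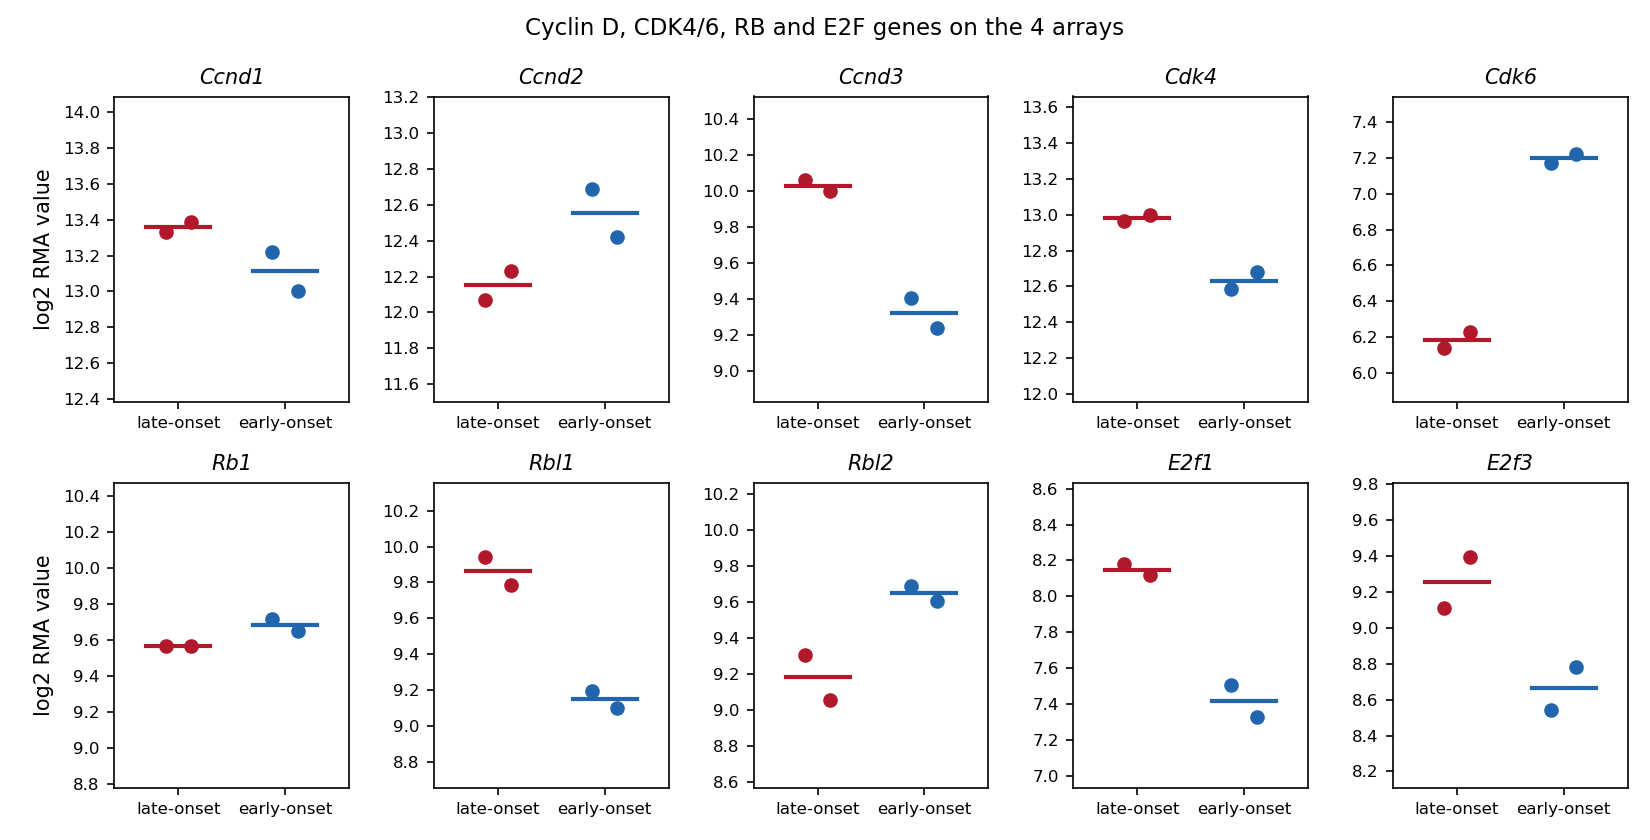
Values of the 10 genes on the 4 arrays. The vertical axis is the log2 RMA value, with the same span in every panel. Points are the 2 late-onset tumours (red) and the 2 early-onset pools (blue), and lines are group means. Each gene's groups are apart, with Cdk6 showing the widest gap (6.19 in late-onset and 7.20 in early-onset cells) and Rb1 the narrowest (9.57 and 9.69).

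**Figure D2:**
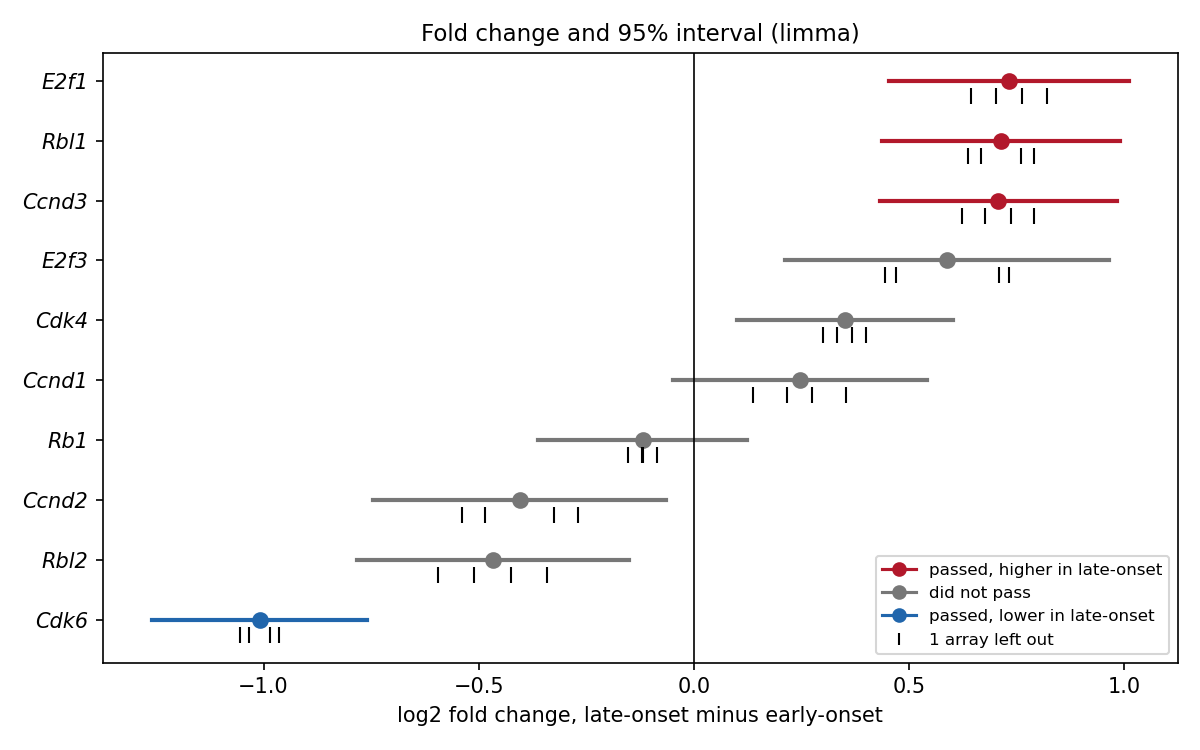
Log2 fold change, late-onset minus early-onset, with its 95% interval from limma (line) and the values with 1 array left out (ticks). Colours mark genes that passed an adjusted p of 0.05. E2f1, Rbl1 and Ccnd3 lie together at 0.71 to 0.73, Cdk6 lies at -1.01, and the intervals of Ccnd1 and Rb1 include 0.

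The promoters of Rbl1, E2f3, Cdk4 and Rbl2 are shown first, as the RefSeq table of build GRCm38.p6 gives them. Of these genes only Rbl1 was called, and the promoters of the other called genes, Ccnd3, E2f1 and Cdk6, are not printed. The RefSeq table held windows for 7 of the 10 genes (Ccnd3, Cdk4, Cdk6, Rbl1, Rbl2, E2f1 and E2f3). Each window ran from 250 bases before to 50 bases after an annotated start. The E2F octamers (TTTGGCGC, TTTGCCGC, TTTCGCGC and TTTCCCGC) and the E-box CACGTG, the element that MYC and MAX bind, were searched on both strands. The 150 bases directly before the start are given for Rbl1 and the upstream start of E2f3, whose windows hold an E2F octamer, for Cdk4, whose window holds 4 E-boxes, and for Rbl2, the relative of Rbl1 with the opposite sign. They lie at chr2:157204535-157204684 (minus strand), chr13:29986064-29986213 (minus), chr10:127063385-127063534 (plus) and chr8:91069907-91070056 (plus). Capitals mark the matched letters, in the reading direction of the gene.
Rbl1: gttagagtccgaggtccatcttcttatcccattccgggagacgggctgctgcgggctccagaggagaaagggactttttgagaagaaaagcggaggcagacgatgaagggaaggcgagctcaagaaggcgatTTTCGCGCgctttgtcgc
E2f3: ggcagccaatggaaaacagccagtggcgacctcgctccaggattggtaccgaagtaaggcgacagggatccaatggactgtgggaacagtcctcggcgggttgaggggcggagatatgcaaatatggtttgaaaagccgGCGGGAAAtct
Cdk4: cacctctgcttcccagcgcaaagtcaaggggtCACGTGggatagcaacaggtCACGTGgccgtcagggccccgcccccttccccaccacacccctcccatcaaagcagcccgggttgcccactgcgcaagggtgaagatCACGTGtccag
Rbl2: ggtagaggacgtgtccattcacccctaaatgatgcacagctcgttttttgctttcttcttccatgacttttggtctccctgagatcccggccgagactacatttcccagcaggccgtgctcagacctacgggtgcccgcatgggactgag

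The Rbl1 octamer, TTTCGCGC, lay at -18 to -11 from the start, and the E2f3 octamer, TTTCCCGC on the other strand, at -11 to -4. An E2F octamer was present in 2.26% of 32851 promoter windows, those of full length outside chromosome 18. Of 25 replication genes that E2F is known to regulate and that had such a window, 12 held an octamer in any of their windows. The latter is a count of genes and not of windows. The windows of E2f1, Ccnd3 (both starts), Cdk4, Cdk6 and Rbl2 held none of these octamers. The E2f1 window (chr2:154569377-154569676, minus strand) lay inside its gene, which begins at 154569892. So did the Cdk6 window (chr5:3343643-3343942), whose gene begins at 3341004. The outermost starts of E2f1 and Cdk6 were thus not searched. The Cdk4 E-boxes lay at -172 to -167, -118 to -113, -98 to -93 and -11 to -6, the first of them upstream of the printed stretch. An E-box was present in 7.15% of windows, and Cdk6 and the downstream start of E2f3 each had 1. These are matches of letters, not measured binding.

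Among the D-type cyclins, which link growth factor signals to the kinases, only Ccnd3 passed. Ccnd3 stood at 10.06 in tumour 1 and 10.00 in tumour 2, against 9.41 in pool 1 and 9.24 in pool 2 (log2 RMA values, where 1 unit is a 2-fold difference). Both tumours lay well above both pools, and the tumours were nearer to each other than the pools were. The mean was 10.03 ± 0.04 in late-onset and 9.32 ± 0.12 in early-onset cells (SD, n = 2 each), a 1.63-fold higher level (log2 fold change 0.71, SE 0.11, limma adjusted p = 0.0161). Without pool 1 the adjusted p was 0.0622 and without pool 2 it was 0.109, with fold changes of 0.79 and 0.62.

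Ccnd1, the cyclin most closely tied to mitogen signalling, stood at 13.33 and 13.39 in the tumours and 13.22 and 13.00 in the pools. Its log2 fold change was 0.25 (95% interval -0.05 to 0.54, limma adjusted p = 0.234). That interval leaves room for a change of up to 0.54 or for none. Ccnd2, the cyclin of many neural progenitors, had the opposite sign. It stood at 12.07 and 12.23 in the tumours, against 12.69 and 12.42 in the pools, a log2 fold change of -0.40 (95% interval -0.75 to -0.06, limma adjusted p = 0.115). Its pools differed from each other by more than its tumours did, and it passed in 1 of 13 other settings, cyclic loess normalization (-0.54, adjusted p 0.045).

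The kinases also had opposite signs. Cdk6 stood at 6.14 in tumour 1 and 6.23 in tumour 2, against 7.17 in pool 1 and 7.22 in pool 2. The gap between groups was far wider than either gap within a group. The mean was 6.19 ± 0.06 in late-onset and 7.20 ± 0.03 in early-onset cells (SD, n = 2 each), 2.01-fold lower in late-onset cells (log2 fold change -1.01, SE 0.10, limma adjusted p = 0.0057). It passed in all 13 other settings at the same threshold, those that left out 1 array included, with values of -1.05 to -0.87. Cdk6 was a dim gene, below the median of 7.44 over all genes in every sample, and RMA understates the fold change of dim genes.

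Cdk4, which forms the same kinase complexes with D-type cyclins, stood at 12.97 and 13.00 in the tumours and 12.58 and 12.68 in the pools. The groups were apart, but its log2 fold change of 0.35 (95% interval 0.10 to 0.60) had a limma adjusted p of 0.078. It passed in 1 of 13 other settings, with a mean-variance trend in eBayes (adjusted p 0.0277), and was 0.21 after cyclic loess.

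Among the pocket proteins, Rbl1 rose while Rb1 and Rbl2 did not pass. Rbl1 encodes p107, whose own gene is a textbook E2F target. It stood at 9.94 and 9.79 in the tumours, against 9.19 and 9.10 in the pools. The mean was 9.86 ± 0.11 in late-onset and 9.15 ± 0.07 in early-onset cells (SD, n = 2 each), a 1.64-fold higher level (log2 fold change 0.71, SE 0.11, limma adjusted p = 0.0158). Without pool 1 the adjusted p was 0.0768 and without pool 2 it was 0.11, with fold changes of 0.76 and 0.67.

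Rb1, the retinoblastoma tumour suppressor gene, stood at 9.57 in both tumours and at 9.72 and 9.65 in the pools. Its log2 fold change was -0.12 (95% interval -0.36 to 0.12, limma adjusted p = 0.481), so a loss of more than 0.36 lies outside the interval. These are transcript levels, and RB is controlled by phosphorylation, which arrays do not measure. Rbl2 encodes p130, the pocket protein that holds E2F target genes silent in resting cells. It stood at 9.31 and 9.05 in the tumours, against 9.69 and 9.60 in the pools. Both tumours lay below both pools, and the log2 fold change was -0.47 (95% interval -0.78 to -0.15, limma adjusted p = 0.0676). Rbl2 passed in 1 of 13 other settings, without tumour 1 (-0.59, adjusted p 0.047).

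The activator E2F genes were both higher, and E2f1 passed. E2f1, which drives S phase genes, stood at 8.18 and 8.12 in the tumours, against 7.50 and 7.33 in the pools. The mean was 8.15 ± 0.04 in late-onset and 7.42 ± 0.12 in early-onset cells (SD, n = 2 each), a 1.66-fold higher level (log2 fold change 0.73, SE 0.11, limma adjusted p = 0.0152). Without pool 1 the adjusted p was 0.0584 and without pool 2 it was 0.102, with fold changes of 0.82 and 0.65.

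E2f3, the other main activator, was read by 2 probe sets. The brighter one stood at 9.11 and 9.40 in the tumours and 8.54 and 8.78 in the pools, a log2 fold change of 0.59 (95% interval 0.21 to 0.97, limma adjusted p = 0.0588). The dimmer one stood at 8.64 and 8.78 in the tumours and 7.995 and 7.95 in the pools. Its samples lay closer together within each group, and its fold change of 0.74 (SE 0.11) had an adjusted p of 0.0137 in a limma fit over all single-gene probe sets. Both probe sets were higher in both tumours. The mean of the probe sets gave 0.66 (adjusted p 0.0237).

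Paralogs were then set against each other within each array. The level part of such a difference carries each probe set's own brightness, so only its change between groups is read. With 2 samples against 2, the exact two-sided permutation test cannot give a p below 0.333, and 7 of the 8 pairs reached it (0.381 after Benjamini-Hochberg adjustment over the 8 pairs), so none passes.

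Cdk4 minus Cdk6 was 6.82 and 6.77 in the tumours, against 5.41 and 5.46 in the pools, a change of 1.36. Rbl1 minus Rbl2 was 0.63 and 0.73 in the tumours, against -0.50 and -0.50 in the pools, a change of 1.18. Ccnd3 minus Ccnd2 was -2.01 and -2.23 in the tumours, against -3.28 and -3.18 in the pools, a change of 1.11. In these pairs the shift between groups was several times the spread within either group. Rbl1 minus Rb1 changed by 0.83, Ccnd1 minus Ccnd2 by 0.65, Ccnd3 minus Ccnd1 by 0.46 and Rb1 minus Rbl2 by 0.35, each without overlap between groups. Each change is the difference of the fold changes of its genes given above, so it adds no separate evidence. Each gene was already apart by itself, so a pair of genes with opposite signs had to be apart too. That covers every pair except Ccnd3 minus Ccnd1, Rb1 minus Rbl2 and E2f1 minus E2f3. Of all single genes 58.9% were apart, and the share of gene pairs in general was not computed. The pair E2f1 minus E2f3 overlapped, at -0.93 and -1.28 in the tumours and -1.04 and -1.45 in the pools (exact permutation p = 0.667).

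**Figure D3:**
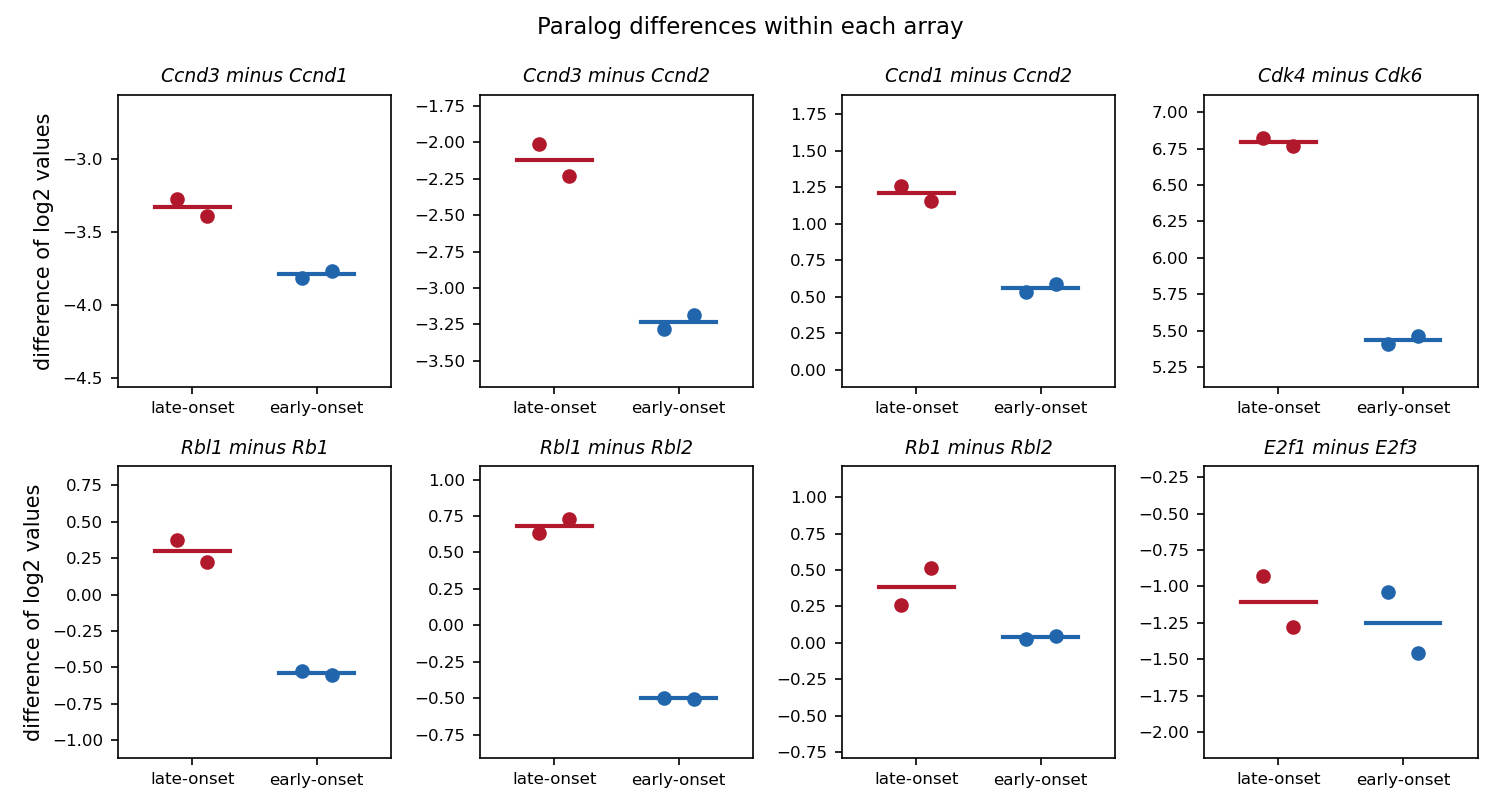
Differences of log2 values between paralogs within each array, with the same span of the vertical axis in every panel. Points are the late-onset tumours (red) and early-onset pools (blue), and lines are group means. In 7 pairs the groups are apart, most widely for Cdk4 minus Cdk6 (6.80 in late-onset and 5.44 in early-onset cells), and in E2f1 minus E2f3 they overlap. Pairs of genes with opposite signs had to be apart, since each gene was apart by itself. The share of gene pairs in general that are apart was not computed.

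Further lists of the pathway were read beside the axis, each as a count of members and a median. The E2F target genes of G1/S moved together. Of 27 measured, 23 rose and 0 fell, at a median log2 fold change of 0.87, and at an unadjusted p of 0.05 it was 26 higher and 0 lower. At that unadjusted threshold, against which the counts of the lists below are also to be read, 14.5% of all genes were higher and 15.4% lower. Chaf1b, which encodes a histone chaperone subunit of replicating chromatin, stood at 9.52 and 9.72 in the tumours, against 8.42 and 8.11 in the pools (1.36, limma adjusted p = 0.00699). The replicative helicase genes Mcm3 and Mcm6 rose by 1.25 and 1.11, and the ribonucleotide reductase gene Rrm2 by 1.18. Without pool 1 there were 12 calls in this list and without pool 2 there were 3, with medians of 0.94 and 0.73. The calls of Mcm3 (adjusted p 0.079 and 0.136) and Mcm6 (0.106 and 0.179) were lost without either pool, and that of Rrm2 (0.0653) without pool 2. Mcm3 and Mcm6 lie on chromosome 1, where genes above the median level stood 0.40 higher in tumour 1 than in tumour 2 at the median, and without tumour 1 they were at 0.95 and 0.79. None of the 10 axis genes lies on chromosome 1.

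Part of the next step of the cascade also rose. Of 10 genes of cyclin E, cyclin A, CDK2 and the CDK-activating kinase, 6 rose and 0 fell (7 and 0 at an unadjusted p of 0.05), at a median of 0.86. Cks1b, a CDK-binding protein that helps degrade p27, rose by 1.73 (SE 0.20, limma adjusted p = 0.00796). The cyclin E genes Ccne2 and Ccne1 rose by 1.10 and 1.06, and Cdc25a, the phosphatase that activates CDK2, by 0.92. The CDK-activating kinase genes did not pass, with Cdk7 at 0.42, Mnat1 at 0.13 and Ccnh at -0.15 (named after their values were seen). Without pool 1 the list held 3 calls, and Cks1b had an adjusted p of 0.0506. The Ccne1 call was lost without pool 2 (0.122) or tumour 2 (0.0833) and with the replicate number as a block (0.0791).

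Of 8 other E2F and DP genes, 2 rose and 0 fell (5 and 0 at an unadjusted p of 0.05), at a median of 0.32. Both were atypical repressor E2Fs, which are themselves E2F targets and bind DNA without a DP partner. E2f7 stood at 9.10 and 9.03 in the tumours, against 7.78 and 7.75 in the pools (1.29, SE 0.10, limma adjusted p = 0.00321). E2f8 stood at 9.12 and 9.04 in the tumours, against 8.27 and 8.08 in the pools (0.91, SE 0.11, adjusted p = 0.00962). These were larger changes than those of E2f1 and E2f3, a difference that was not tested. Without pool 2 the list held 1 call, E2f7, and E2f8 had an adjusted p of 0.0647.

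Of 13 measured partners of pocket proteins and of the MuvB complex, 5 rose and 0 fell (8 and 0 at an unadjusted p of 0.05), at a median of 0.36. Lin9, a MuvB subunit, stood at 8.38 and 7.84 in the tumours and at 6.87 in both pools (1.24, limma adjusted p = 0.0162). It lies on chromosome 1 and was at 0.97 without tumour 1. Mybl2 and Foxm1, which join MuvB to activate genes of G2 and mitosis, rose by 0.83 and 0.76. The histone deacetylase gene Hdac1, a corepressor of RB, rose by 0.58. Without pool 1 and without pool 2 the list held 0 calls, and without either tumour it held 3, with Foxm1 at an adjusted p of 0.05001 without tumour 1 and 0.067 without tumour 2.

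The kinase inhibitors were measured for 6 of 7 genes, of which 2 rose and 0 fell (4 and 0 at an unadjusted p of 0.05), at a median of 0.51. Cdkn2a, which encodes the CDK4/6 inhibitor p16INK4a and the p53 activator p19ARF, stood at 10.29 and 10.59 in the tumours, against 8.09 and 7.86 in the pools (2.46, SE 0.15, limma adjusted p = 0.00208). Cdkn2b, the p15INK4b gene beside it, rose by 0.97 (adjusted p 0.0494). Cdkn2b did not pass after cyclic loess (0.0571) or quantile normalization (0.0503), with array weights (0.0502) or with the replicate number as a block (0.113). It also failed to pass when pool 1 (0.0723), pool 2 (0.206) or tumour 2 (0.122) was left out.

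Of 10 genes of D cyclin turnover, 0 were called by limma, with 1 higher and 1 lower at an unadjusted p of 0.05, below the shares of all genes (14.5% and 15.4%), and the median was 0.12. Skp2, an E2F-responsive ubiquitin ligase subunit that also degrades p27, stood at 0.56 (adjusted p 0.0527) and passed in 5 other settings at the same threshold. Fbxw7, which targets cyclin E and MYC, stood at -0.27 (adjusted p 0.133). Of 11 transcription factors that act on D cyclin genes, 1 rose and 0 fell (1 and 1 at an unadjusted p of 0.05), at a median of -0.07. The share called was 9.09%, below the 14.7% of all genes. The called gene was Myc, which stood at 11.46 and 11.27 in the tumours, against 9.87 and 10.07 in the pools (1.40, SE 0.13, adjusted p 0.00476).

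**Figure D4:**
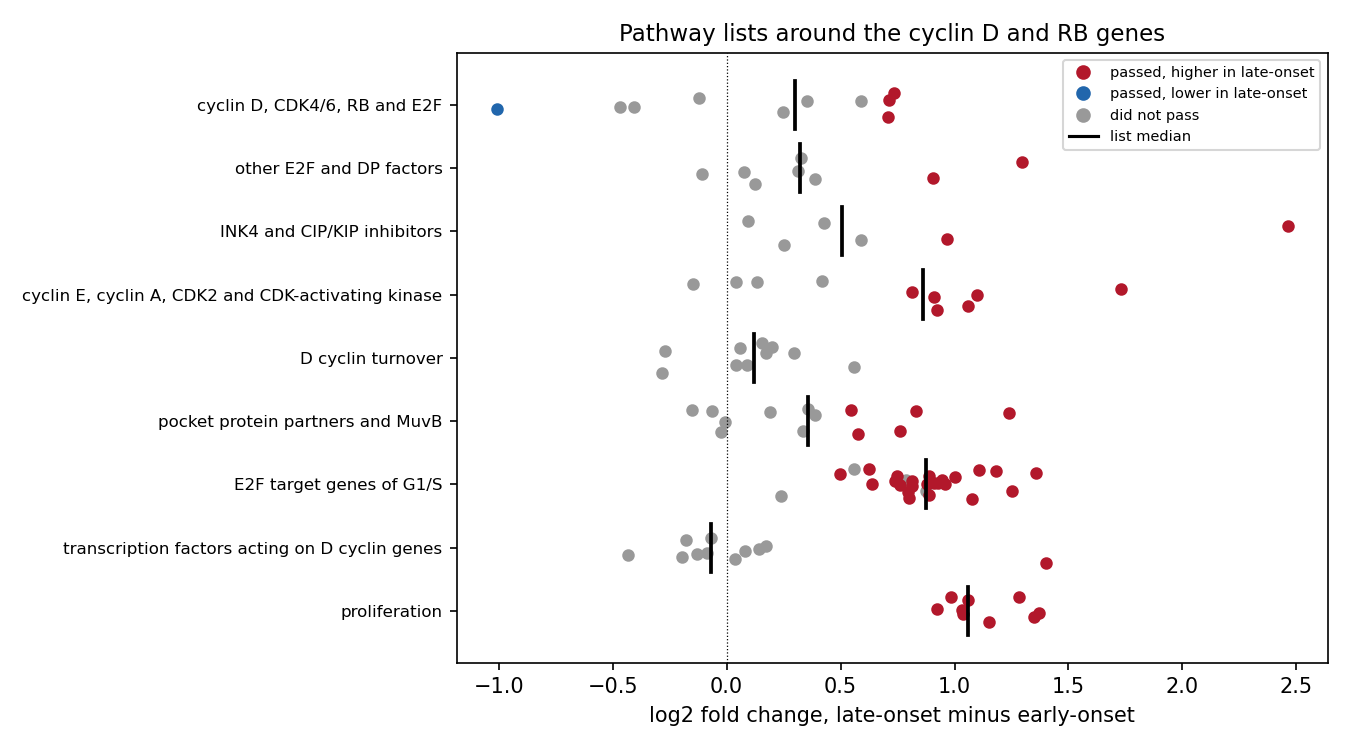
Log2 fold change, late-onset minus early-onset, of every measured gene of the axis and of each pathway list, with list medians as bars. Red and blue points passed an adjusted p of 0.05, and grey points did not. The axis genes spread from -1.01 to 0.73, while all 27 E2F target genes lie above 0, at a median of 0.87.

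Samples also differed in other cell types and in cycling. All 9 measured proliferation markers rose, at a median of 1.06, with Aurka at 1.37 and Plk1 at 1.35, and 3 were called without pool 1 and 5 without pool 2. Their mean log2 value was 10.37 and 10.32 in the tumours, against 9.08 and 9.35 in the pools. Of 18 microglia and macrophage markers, 17 fell and 0 rose, led by Ly86 (-4.70) and Fcrls (-4.64), and their mean value was 6.74 and 7.27 in the tumours, against 10.65 and 10.42 in the pools. Astrocyte markers fell in 6 of 11 cases, with Slc4a4 at -2.28 and Slc1a2 at -1.93 (3 cases without pool 1 and 2 without pool 2). Their mean was 7.69 and 8.26 in the tumours and 8.96 and 9.32 in the pools. Neuron markers fell in 6 of 12 cases and rose in 1, with Snap25 at -1.85 and Tubb3 at 1.86 (1 lower without pool 1 and 0 without pool 2). Their mean was 7.45 and 7.71 in the tumours and 8.02 and 8.19 in the pools.

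Of 9 oligodendrocyte progenitor markers, the type the sorted cells should resemble, 3 fell, with C1ql1 at -0.84 and Cspg5 at -0.74. None was called without pool 1 or without pool 2, 1 with the replicate number as a block, and 5 with a mean-variance trend or after cyclic loess. Their mean value was high in every sample, at 12.08 and 11.94 in the tumours and 12.33 and 12.37 in the pools. Of 8 oligodendrocyte markers, 2 fell and 1 rose, with Mobp at -2.62 and Cldn11 at 2.07. Without pool 1 or pool 2 none of them was called lower, and without tumour 2 it was 4. Their mean was 8.52 and 9.35 in the tumours and 9.04 and 9.58 in the pools. Of 11 endothelial and pericyte markers 1 fell, Rgs5 (-0.56), a share of 9.09% against the 14.7% of all genes. The Rgs5 call was lost without either pool, without tumour 1 and with the block. Rgs5 lay in the dimmest quartile of genes and was not tested with that quartile left out. The mean of the 11 markers was 5.83 and 6.61 in the tumours and 6.67 and 6.10 in the pools. Among 8 markers of T cells and NK cells only Cd4 was called (-0.44), a share below the 14.7% of all genes. That call was lost when any sample was left out, with the block and under each other scaling. Cd4 also lay in the dimmest quartile and was not tested with that quartile left out. The mean of the list lay between 5.00 and 5.05 in every sample. The fall of Cdk6 and the lower values of Ccnd2 and Rbl2 run the same way as the microglial markers and most astrocyte and neuron markers. They also run the same way as 8 of the 9 oligodendrocyte progenitor markers (median -0.34). Oligodendrocyte markers were split, with 4 above 0 and 4 below. The rises of Ccnd3, Rbl1 and E2f1 run the same way as the proliferation markers. The part of cell types and of cycling in these results was not tested. In sorted bulk cells fewer cells of a type and less RNA per cell cannot be told apart.

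Genes with the nearest pattern were sought for each called member among genes above the median level, by the root mean square difference of the 4 values after each gene's mean was subtracted. With 4 arrays this describes shape only. Ccnd3 was nearest to Brca1 (a difference of 0.01), then E2f1 (0.013) and Sass6 (0.019). E2f1 was nearest to Brca1 (0.012), Ccnd3 (0.013) and Jpt2 (0.017). Rbl1 was nearest to Clcn5 (0.011), Timm17a (0.018) and Mphosph10 (0.025), and Cdk6 to Ap3b2 (0.023), Elmo1 (0.024) and Tmem132d (0.038). Ccnd3 and E2f1, which lie on chromosomes 17 and 2, were thus among each other's nearest genes in shape.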

How the data were processed

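Total RNA of EGFP-sorted glioma cells was hybridised to 4 Affymetrix mouse arrays, 2 per group. The deposited values are on the log2 scale, 1 per probe set. RMA and affy (version 3.4.2) were used, per the submitters' processing notes, which give no parameters. RMA scales arrays to each other, which would hide a shift of the whole transcriptome. The number of arrays limits the precision. The limma p-values use each gene's spread between these samples, drawn towards that of all genes (prior degrees of freedom 3.27, residual 2). One common variance was fitted, although each early-onset sample pooled 2 tumours and each late-onset sample held 1. Array medians lay between 6.63 and 6.71, and correlations were 0.988 between tumours, 0.992 between pools and 0.972 to 0.974 across groups.

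Of 34760 probe sets, 21640 had one gene symbol in the platform annotation, 1321 had several and 11799 had none; only the first were used. By Entrez identifier 21553 matched the GRCm38.p6 RefSeq table, and 0 symbols changed. Each gene kept its probe set with the highest mean. Late-onset minus early-onset was fitted with lmFit and eBayes (limma 3.58.1, R 4.3.3). On simulated arrays with 200 of 19937 genes changed, over 5 runs, the test recovered 57.8% of log2 changes of 1 and 97% of changes of 2, with 4.56% of calls false. In the data 14.7% of genes were called, and the simulation gave pools and single tumours the same variance. These rates therefore describe the simulated setting and not the power of the fit here.

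The 10 genes, the lists and the tests were chosen with earlier results of these data known. All 10 were named, with up to 4 called genes of each pathway list and 2 of each marker list by absolute fold change. In a list with no call, the 2 genes with the highest absolute moderated t were named. The 3 nearest genes of each called member were named too. Alternatives covered the variance model, dim genes, scaling, probe set choice, a block for the replicate number, array weights, the threshold and leaving out each sample.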

Additional observations from a re-analysis of the deposited data

How the results depend on the processing

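The signs of all 10 genes were kept in the 13 other settings run at an adjusted p of 0.05. Of the calls, Cdk6 held in 13 settings and Ccnd3, Rbl1 and E2f1 in 11 each, all 3 being lost without pool 1 or pool 2. The count of the 10 genes called was 4; leaving out each sample in turn gave 1 to 6, and a threshold of 0.1 gave 7, with Cdk4, Rbl2 and E2f3 added. The count of all genes called was 2931, against 850 to 2577 when each sample was left out, 1833 with the replicate number as a block and 4539 at a threshold of 0.1. Where a group was left with 1 sample, that sample was assumed to vary like the other group. The replicate numbers only name samples (the deviations of tumour 1 and pool 1 correlated at r = -0.044 over genes), and the block kept the count of 4 for the axis genes. It gave 3 in place of 5 calls for the pocket protein partners and 1 in place of 2 for the inhibitors, and Ccne1 (adjusted p 0.0791) and Hdac1 (0.0535) lost their calls. The changes of the paralog pairs kept their sign in all 13 settings, except E2f1 minus E2f3, which was -0.06 without pool 2 and -0.03 without tumour 1. The median log2 fold change of the 10 genes was 0.30, against 0.36 after median subtraction, 0.24 after quantile normalization and 0.15 after cyclic loess.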

Other observations

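The surroundings of each gene on its chromosome were described from the GRCm38.p6 RefSeq positions, with no test. Over the nearest measured genes, up to 10 on each side, the median log2 fold change lay between -0.14 and 0.06 for 9 of the 10 genes. For Rbl2 on chromosome 8 it was -0.32, with 8 of 20 neighbours called lower and 0 called higher, against 8.12% of all genes called lower. Rbl2 itself stood at -0.47. The median of its whole chromosome was 0.02 over 542 genes above the median level. Around Cdk6 on chromosome 5, 1 of 10 neighbours was called higher and 0 lower, at a median of 0.06, while Cdk6 stood at -1.01. Around Cdk4 on chromosome 10, 3 of 20 neighbours were called lower and 0 higher, at a median of -0.14, while Cdk4 stood at 0.35. Around E2f1 and Rbl1, both on chromosome 2, the medians were 0.04 and -0.09, while both genes rose.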
